A study of Homo sapiens with 20 samples.

Results

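HUDEP-2 is an immortalized erythroid progenitor line from human umbilical cord blood, and the libraries used here were all of wild-type cells of that line. The comparison set the 6 libraries of days 4, 5 and 6 in differentiation medium (2 a day) against the 2 libraries of day 0, which are 8 of the 20 libraries of a time course over 10 days. They were chosen by day alone, with no use of measured values. The study places day 0 at the proerythroblast (Pro-E) stage and days 4 to 6 in the basophilic erythroblast stage, early (EB) and late (LB). Day 0 cells came from expansion culture in StemSpan SFEM with stem cell factor (SCF), erythropoietin (EPO) and doxycycline, to which the methods of the study add dexamethasone. The cells of days 4 to 6 had been moved to Iscove's medium with holo-transferrin, AB serum, heparin, insulin and L-glutamine. EPO, SCF and doxycycline were kept in it, SCF was left out on day 6, and doxycycline was removed only after these days. No culture was kept in expansion medium until day 4, so time in differentiation and the change of medium cannot be told apart. The line is a single immortalized one, and the p-values measure the spread between libraries of that line.

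The proerythroblast is the first recognizable erythroid precursor, a large dividing cell that still carries much of the surface and signalling outfit of a progenitor. Basophilic erythroblasts keep dividing while ribosomes fill the cytoplasm and the production of globin, heme and the red cell membrane rises. GATA1, KLF1 and TAL1 are the transcription factors best known for driving this program, EPO and SCF act on it through the receptors EPOR and KIT, and GATA1 replaces GATA2 at many genes as cells mature.

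The 8 libraries held 55079862 to 70358198 counts, so that a count of 0 allows up to 3 counts, or 0.0426 to 0.0545 CPM (counts scaled to a fixed library total). Without molecular identifiers, such limits and the intervals given here reflect the error of counting alone. Within each day the pair of libraries had a Spearman correlation of 0.981 to 0.983 across genes, which are not independent replicates. The libraries of a day came in separate deposited tables, a table of days 0 to 6 (called set 1) and a table of the whole time course (set 2), and libraries of a set deviated together. The differences between the sets correlated across genes with r = 0.523 to 0.846 between days. All 17 markers listed for erythroid cells were detected, and their summed level in TPM (abundance per transcript length, scaled to a fixed library total) went from 40590 and 44810 on day 0 to between 112600 and 155700 on days 4 to 6. That sum was mostly globin. The full list of 10 globin genes, some of them not among these markers, summed to 29150 and 29040 TPM on day 0. On days 4 to 6 it summed to 96500 to 136700 TPM. Of the 6 mast cell and basophil markers all were detected, with sums of 2132 and 1151 TPM on day 0 and 145 to 412 TPM on days 4 to 6. Megakaryocyte markers summed to 69.0 and 10.8 TPM and then 2.09 to 16.1 TPM, with GP1BA, PF4, PPBP and VWF never above that limit of 3 counts. Neutrophil and monocyte markers summed to 2.48 and 1.25 TPM and then 0.131 to 0.893 TPM, with MPO, ELANE and CSF3R at or under the limit. Lymphocyte markers summed to at most 0.754 TPM in any library, with CD3E, MS4A1 and NKG7 among those at or under the limit. The progenitor markers summed to 349 and 305 TPM and then 65.3 to 123 TPM, nearly all of it KIT, with FLT3 at or under the limit. In such bulk libraries fewer cells of a type and less RNA per cell cannot be told apart.

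Upstream sequences of 5 genes are shown because they hold a GATA motif and belong to genes that moved in both directions. The first 3 genes rose and the other two fell. Each sequence is the 250 bases before a RefSeq transcription start in GRCh38.p14, written 5′ to 3′ on the strand of the gene. For TRIM10 and MS4A2 the window lies inside the span of the deposited transcripts, so that another annotated start lies further upstream. Capitals mark AGATAA or its reverse complement TTATCT, the letters that GATA factors bind, and CCNCNCCC or its reverse complement, the letters that KLF1 and related factors bind. Matches of the second motif may overlap each other.
ALAS2 (chrX:55030978-55031227, minus strand): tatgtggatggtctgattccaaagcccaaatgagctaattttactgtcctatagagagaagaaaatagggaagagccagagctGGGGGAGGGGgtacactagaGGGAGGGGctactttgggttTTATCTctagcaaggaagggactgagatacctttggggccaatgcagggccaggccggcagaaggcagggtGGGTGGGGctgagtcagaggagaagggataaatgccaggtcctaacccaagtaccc
EPOR (chr19:11384315-11384564, minus strand): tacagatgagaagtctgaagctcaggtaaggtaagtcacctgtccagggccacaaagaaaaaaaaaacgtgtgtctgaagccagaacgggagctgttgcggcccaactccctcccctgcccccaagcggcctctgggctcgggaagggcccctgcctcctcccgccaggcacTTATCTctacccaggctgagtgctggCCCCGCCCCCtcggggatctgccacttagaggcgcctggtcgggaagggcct
TRIM10 (chr6:30161212-30161461, minus strand): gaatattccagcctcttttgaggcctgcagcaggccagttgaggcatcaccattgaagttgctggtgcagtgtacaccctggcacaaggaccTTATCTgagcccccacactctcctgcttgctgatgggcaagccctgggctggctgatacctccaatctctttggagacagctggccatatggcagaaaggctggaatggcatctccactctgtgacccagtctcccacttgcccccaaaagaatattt
CPA3 (chr3:148865046-148865295, plus strand): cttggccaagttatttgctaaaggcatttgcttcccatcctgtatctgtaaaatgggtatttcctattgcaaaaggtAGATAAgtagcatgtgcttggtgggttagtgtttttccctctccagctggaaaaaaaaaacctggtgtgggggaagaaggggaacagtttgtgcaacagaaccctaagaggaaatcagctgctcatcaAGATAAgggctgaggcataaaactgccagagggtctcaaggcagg
MS4A2 (chr11:60088414-60088663, plus strand): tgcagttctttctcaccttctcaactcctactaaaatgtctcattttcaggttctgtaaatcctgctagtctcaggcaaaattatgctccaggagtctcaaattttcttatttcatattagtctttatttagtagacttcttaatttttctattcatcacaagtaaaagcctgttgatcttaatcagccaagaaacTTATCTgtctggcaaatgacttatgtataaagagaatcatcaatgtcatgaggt
In ALAS2 the AGATAA match began 127 bases before the start and 4 matches of CCNCNCCC stood in the window, and EPOR had its AGATAA match 78 bases before the start with 2 of CCNCNCCC. TRIM10 held 1 AGATAA match at 158 bases, CPA3 held 2 at 173 and 45 bases, and MS4A2 held 1 at 54 bases, none with CCNCNCCC. Of the 35116 such windows in the reference, 9.17% hold AGATAA and 53.4% hold CCNCNCCC on either strand. By gene, AGATAA was in a window of 7.03% of the 10802 genes tested that matched the reference by symbol, of 9.25% of 962 genes higher on days 4 to 6 and of 8.66% of 1236 genes lower. CCNCNCCC was in a window of 75.7%, 81.7% and 80.1% of the same genes. The shares of higher and lower genes were thus close to each other for either motif, and a match is a description of the letters only. Of the 132 genes named by rule, 97 matched a window.

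Of 15386 genes tested, 1195 were higher (7.77%) and 1630 lower (10.6%) on days 4 to 6 than on day 0 at an adjusted p under 0.05 in edgeR's quasi-likelihood test. The fitted log2 fold change (log2 FC, days 4 to 6 over day 0, given with its standard error) was at least 1 for 461 of the higher genes and at most −1 for 949 of the lower genes. Changes of 8-fold or more were found for 85 higher and 222 lower genes. The median log2 FC of all genes tested was −0.01. Of the 2825 genes called, 2824 had the same sign in the libraries of set 1 alone and of set 2 alone, and 2770 were also called by DESeq2. The calls came from these same libraries. A gene with opposite signs in the sets could hardly pass, so the agreement in sign is not independent support. With the set as a block in the fit, 2831 genes were higher (18.4%) and 3373 lower (21.9%), and these included all 2825 (the block fit from here on). The counts rested most on the day 0 libraries. Without that of set 1, 260 genes were higher and 462 lower, and without that of set 2, 595 and 760. Leaving out the set 1 library of day 4 or of day 5 gave 762 and 749 higher genes and 1097 and 1119 lower genes. On the TPM scale, limma on log2(TPM + 1) called 718 higher and 2155 lower genes, so that 24.99% of calls were higher in place of 42.3%, with a median of all genes of −0.11. With a pseudocount of 0.1 it called 761 and 2109 genes, with a median of −0.16.

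**Figure D1:**
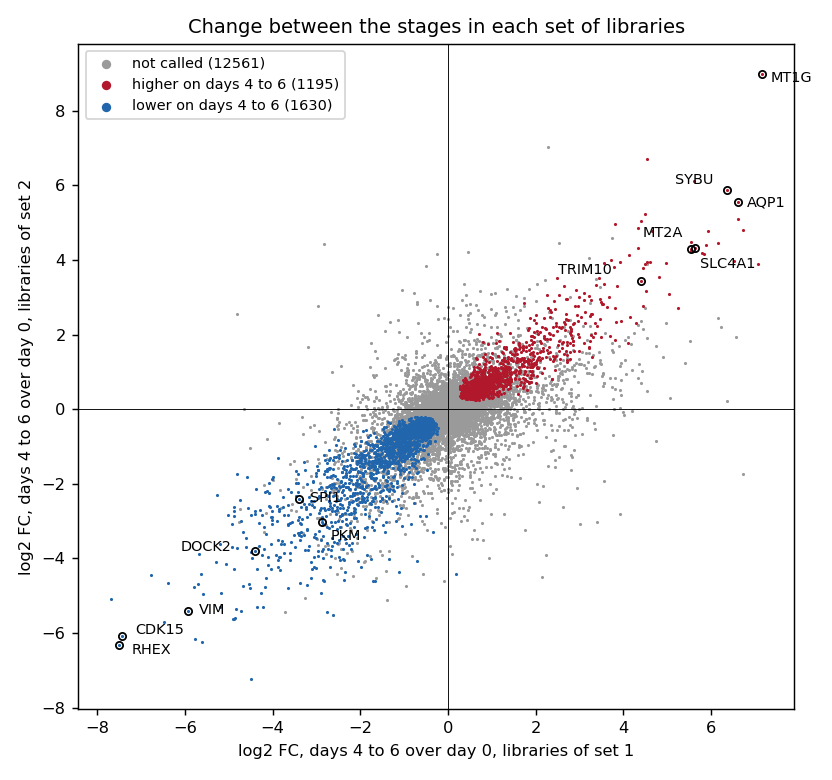
Each point is a gene, with the log2 FC of days 4 to 6 over day 0 in the libraries of set 1 on the x axis and of set 2 on the y axis, from normalized CPM with a prior count of 2. The 1195 genes called higher (red) and the 1630 called lower (blue) lie in the upper right and the lower left, with 1 exception, and circles mark 12 genes that the text names. The calls used the libraries of both axes, so this placement is not independent of them.

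The gene lists below sort the members by role, and each list is given by its count of genes called and its median log2 FC. They are read against the 7.77% of all genes called higher and the 10.6% called lower. Levels are given in TPM, as the values of both day 0 libraries followed by the median of the 6 libraries of days 4 to 6, with the lowest and the highest in parentheses. TPM sums to a fixed total in each library while the log2 FC comes from counts scaled by TMM, so the ratio of TPM values and the log2 FC need not be equal. Genes were named by a rule, and further members of a list, such as GATA1, TFRC or PKLR, were picked for their known role after their values were seen. Whether groups overlap is read from the TPM values. On normalized CPM the answer can differ, as for HBE1 and ITGA4, which overlap in TPM and not in normalized CPM. Most named genes were picked from those called, and the largest changes also had to be without overlap. Separate groups are therefore favoured by the choice of genes, and they describe the named genes and not their list. They also occur in genes that were not called, such as HBZ and TRIM32. The share of all genes tested without overlap is not given here.

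Globin mRNA rose on days 4 to 6. Of the 10 globin genes, 7 were higher and none was lower, with a median log2 FC of 2.37, and their share of all counts went from 0.859% and 0.819% on day 0 to between 2.92% and 4.39%. HBB, the adult beta chain, went from 18580 and 22120 to 67100 TPM (56620 to 73740) (log2 FC 1.88 ± 0.11, adjusted p = 0.000363). HBA1 and HBA2, the alpha chain genes, went from 4953 and 2936 to 19630 TPM (15260 to 30160) and from 4933 and 3153 to 19120 TPM (15220 to 28690). Their log2 FC were 2.54 ± 0.37 (adjusted p = 0.00619) and 2.46 ± 0.30 (adjusted p = 0.00338). The coding parts of the alpha genes are nearly identical, so the division of reads between them is uncertain, and the same holds for HBG1 and HBG2. In each of these genes the lowest library of days 4 to 6 stood above both day 0 libraries. HBD, the minor adult chain, went from 385 and 599 to 2121 TPM (1667 to 2936) (log2 FC 2.33 ± 0.28, adjusted p = 0.00319). The fetal chain genes stayed far under HBB in TPM, with HBG1 going from 72.8 and 48.1 to 289 TPM (169 to 469) (log2 FC 2.46 ± 0.52, adjusted p = 0.0206) and HBG2 from 130.4 and 95.6 to 521 TPM (373 to 766) (log2 FC 2.42 ± 0.42, adjusted p = 0.011). HBM, an alpha-like gene, had the largest change of the globins, from 44.6 and 42.7 to 298 TPM (206 to 353) (log2 FC 2.84 ± 0.17, adjusted p = 0.000332).

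The other 3 globin genes did not pass the test. Embryonic HBZ was at 8.11 and 8.68 TPM on day 0 and 13.97 to 72.5 TPM on days 4 to 6, with no overlap (log2 FC 2.33 ± 0.75, adjusted p = 0.0764). HBQ1, another alpha-like gene, was at 39.7 and 33.1 TPM and then 42.04 to 62.9 TPM (log2 FC 0.66 ± 0.23, adjusted p = 0.0915). Embryonic HBE1 stood at 1.58 and 1.14 TPM and then 1.4 to 5.495 TPM with overlap, the highest value being that of the day 4 library of set 1 (log2 FC 0.87 ± 0.46, adjusted p = 0.232). With the set as a block HBZ and HBQ1 were called (adjusted p = 0.00388 and 0.0139) and HBE1 was not (adjusted p = 0.134).

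Of the 18 genes for heme synthesis and for mitochondrial import for heme, 12 were higher and 1 was lower, with a median log2 FC of 0.85. ALAS2, the erythroid form of the first enzyme of the pathway, went from 202 and 351 to 868 TPM (689 to 1062) (log2 FC 1.86 ± 0.25, adjusted p = 0.00487). ALAS1, the form of other tissues, was the lower gene, from 32.9 and 33.5 to 22.9 TPM (18.5 to 25.5) (log2 FC −0.41 ± 0.11, adjusted p = 0.0405). Both forms separated the stages without overlap, in opposite directions. The largest change was that of SLC6A9, the transporter that brings glycine into the cell, from 5.701 and 8.42 to 57.8 TPM (37.3 to 97.7) (log2 FC 3.29 ± 0.37, adjusted p = 0.00257). SLC25A37, the mitochondrial iron importer mitoferrin, went from 335 and 385 to 907 TPM (583 to 1381) (log2 FC 1.57 ± 0.30, adjusted p = 0.0154). Among the enzymes after ALAS2, the log2 FC were 1.04 for FECH, 1.01 for CPOX, 0.82 for UROD, 0.77 for UROS and 0.56 for PPOX, all called, and PPOX alone of them overlapped in TPM (84.96 and 114 against 104 to 148). ALAD, the second enzyme, was at 70.3 and 110.0 TPM and then 68.99 to 109 TPM with overlap (log2 FC 0.20 ± 0.18, adjusted p = 0.501).

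Iron genes moved less. Of 18, 5 were higher and none was lower, with a median log2 FC of 0.41. ERFE, the hormone by which erythroblasts lower hepcidin in the liver, went from 24.2 and 16.7 to 80.6 TPM (51.2 to 115) (log2 FC 2.17 ± 0.30, adjusted p = 0.00516). GLRX5, needed for iron-sulfur clusters, went from 267 and 248 to 446 TPM (358 to 519) (log2 FC 0.96 ± 0.22, adjusted p = 0.0274), and NCOA4, which hands ferritin to autophagy, from 132 and 161 to 220.4 TPM (166 to 239) (log2 FC 0.70 ± 0.17, adjusted p = 0.0301). The groups of all 3 genes did not overlap. TFRC, the transferrin receptor, was already at 1852 and 2579 TPM on day 0 and stood at 2371 to 2996 TPM on days 4 to 6, with overlap (log2 FC 0.44 ± 0.13, adjusted p = 0.0556), and in the block fit it was higher (adjusted p = 0.0148). The block fit had 10 iron genes higher and 1 lower.

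Of 18 erythroid transcription factors and cofactors, 12 were higher and none was lower (16 and 1 in the block fit), with a median log2 FC of 0.64. The core factors had high levels on day 0 and rose modestly. GATA1 went from 209 and 216 to 297 TPM (279 to 333) (log2 FC 0.66 ± 0.09, adjusted p = 0.00461), KLF1 from 515 and 461 to 651 TPM (618 to 706) (log2 FC 0.59 ± 0.12, adjusted p = 0.018) and TAL1 from 63.2 and 80.6 to 113 TPM (101 to 122) (log2 FC 0.81 ± 0.13, adjusted p = 0.00905). Larger changes were seen in genes with lower levels. SOX6, a repressor of embryonic globin, went from 1.49 and 0.963 to 6.21 TPM (2.96 to 8.36) (log2 FC 2.4 ± 0.34, adjusted p = 0.0055). ZFPM1, the GATA1 partner FOG1, went from 12.01 and 8.15 to 27.8 TPM (20.99 to 30.9) (log2 FC 1.61 ± 0.28, adjusted p = 0.0116), and E2F2, a cell cycle factor of erythroblasts, from 14.5 and 16.6 to 38.8 TPM (28.5 to 48.8) (log2 FC 1.54 ± 0.23, adjusted p = 0.00643). None of these 6 genes overlapped between the stages. MYB, a factor of proliferating progenitors, was at 242 and 233 TPM and then 91.3 to 171 TPM and did not pass (log2 FC −0.65 ± 0.19, adjusted p = 0.0554), but was lower with the set as a block (adjusted p = 0.00367).

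Of 20 transcription factors of progenitors and myeloid cells 13 had enough counts to be tested, and 4 of them were lower and 2 higher, with a median log2 FC of −0.47. SPI1, the myeloid and early progenitor factor PU.1, went from 36.04 and 23.1 to 3.17 TPM (2.58 to 5.72) (log2 FC −2.94 ± 0.25, adjusted p = 0.00108). IKZF2, a factor of the Ikaros family, went from 10.5 and 6.29 to 0.122 TPM (0.0767 to 0.244) (log2 FC −5.37 ± 0.26, adjusted p = 0.000207). HHEX, a homeobox factor of early blood cells, went from 133 and 75.8 to 30.1 TPM (21.1 to 40.7) (log2 FC −1.64 ± 0.26, adjusted p = 0.00827), and GATA2 from 211 and 131 to 73.3 TPM (63.2 to 84.4) (log2 FC −1.08 ± 0.21, adjusted p = 0.0165). In all 4 the highest library of days 4 to 6 stood under both day 0 libraries. The higher genes were IKZF1, another Ikaros factor, from 91.9 and 78.1 to 111 TPM (95.2 to 114) (log2 FC 0.50 ± 0.12, adjusted p = 0.0291), and HLF, from 0.227 and 0.406 to 0.702 TPM (0.614 to 0.815) (log2 FC 1.33 ± 0.30, adjusted p = 0.0253). In the block fit 4 genes of the list were higher and 6 lower. MYC was at 309 and 385 TPM and then 218 to 349.7 TPM with overlap (log2 FC −0.13 ± 0.18, adjusted p = 0.662).

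Of 16 genes of the membrane skeleton and the band 3 complex, 10 were higher and none was lower (12 and 2 in the block fit), with a median log2 FC of 0.73. SLC4A1, the anion exchanger band 3 that anchors the skeleton (chr17:44248390-44268161), stood out by size. It went from 17.4 and 24.9 to 558 TPM (261 to 1003) (log2 FC 4.96 ± 0.46, adjusted p = 0.00136), and its log2 FC over day 0 on days 4, 5 and 6 were 4.28, 5.09 and 5.49. DMTN, the actin-bundling protein dematin, went from 95.5 and 70.4 to 238 TPM (163 to 362) (log2 FC 1.75 ± 0.36, adjusted p = 0.0188), and TPM1, the tropomyosin of the short actin filaments, from 87.9 and 55.6 to 191 TPM (155 to 233) (log2 FC 1.57 ± 0.31, adjusted p = 0.0164). The beta spectrin SPTB, ankyrin ANK1, protein 4.1 (EPB41) and protein 4.2 (EPB42) had log2 FC of 0.68, 0.54, 0.46 and 0.89 and were called. Of the genes named here, EPB41 overlapped in TPM (129 and 158 against 154 to 185) and the others did not.

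Of 24 genes for blood group antigens and red cell channels, 10 were higher and 2 lower, with a median log2 FC of 0.73. AQP1, the water channel that carries the Colton antigens (chr7:30911853-30925516, hg38 as deposited), had the largest change of the genes called here. It went from 1.49 and 1.69 to 102 TPM (58.2 to 145) (log2 FC 6.18 ± 0.57, adjusted p = 0.00133). RHD went from 1.85 and 2.83 to 9.53 TPM (5.56 to 15.3) (log2 FC 2.24 ± 0.26, adjusted p = 0.00305), and RHCE, a close copy that can share its reads, had a log2 FC of 1.91. GYPB, a glycophorin with close copies in the genome, went from 73.2 and 112 to 369 TPM (264 to 560.3) (log2 FC 2.27 ± 0.41, adjusted p = 0.0129). The urea transporter SLC14A1 fell from 11.7 and 15.1 to 5.51 TPM (3.799 to 7.24) (log2 FC −1.11 ± 0.18, adjusted p = 0.00896), and CD47, the signal that restrains phagocytes, from 50.01 and 37.3 to 26.7 TPM (24.5 to 28.6) (log2 FC −0.55 ± 0.15, adjusted p = 0.0449). All 6 named genes separated the stages. Carbonic anhydrase CA1 was among the most abundant mRNAs in both stages, at 6402 and 9884 TPM and then 7149 to 9841 TPM with overlap (log2 FC 0.24 ± 0.18, adjusted p = 0.397). In the block fit 17 genes of the list were higher and 5 lower.

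The list of EPO and KIT signalling split. Of 23 genes tested of 25, 5 were higher and 5 lower, with a median log2 FC of −0.20. EPOR went from 71.4 and 74.4 to 156 TPM (141 to 161) (log2 FC 1.23 ± 0.10, adjusted p = 0.00108), and its kinase JAK2 had a log2 FC of 1.13 (adjusted p = 0.0034). The feedback genes CISH and SOCS3, which EPO signalling switches on through STAT5 and which dampen it, also rose. CISH went from 43.3 and 52.1 to 114 TPM (92.8 to 124) (log2 FC 1.39 ± 0.15, adjusted p = 0.00243) and SOCS3 from 0.185 and 0.144 to 0.819 TPM (0.515 to 1.77) (log2 FC 2.67 ± 0.68, adjusted p = 0.0382). KIT, the SCF receptor (chr4:54657928-54740715), fell from 349 and 305 to 101 TPM (65.2 to 122) (log2 FC −1.6 ± 0.19, adjusted p = 0.00345). CSF2RB, the shared beta chain of the receptors for IL-3, IL-5 and GM-CSF, fell from 72.2 and 55.97 to 4.71 TPM (2.28 to 10.8) (log2 FC −3.5 ± 0.42, adjusted p = 0.00328). SPRY2, an inhibitor of receptor tyrosine kinase signalling, fell from 9.14 and 8.16 to 1.95 TPM (1.601 to 3.54) (log2 FC −1.86 ± 0.17, adjusted p = 0.00126), and the kinase LYN had a log2 FC of −1.47 (adjusted p = 0.000288). The block fit had 8 genes of the list higher and 9 lower. No library of days 4 to 6 reached the level of a day 0 library for KIT, CSF2RB, SPRY2 or LYN. The log2 FC of KIT over day 0 was −1.49, −1.67 and −1.63 on days 4, 5 and 6. SCF was in the medium on days 4 and 5 and was left out on day 6, and its part in these values was not tested.

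**Figure D2:**
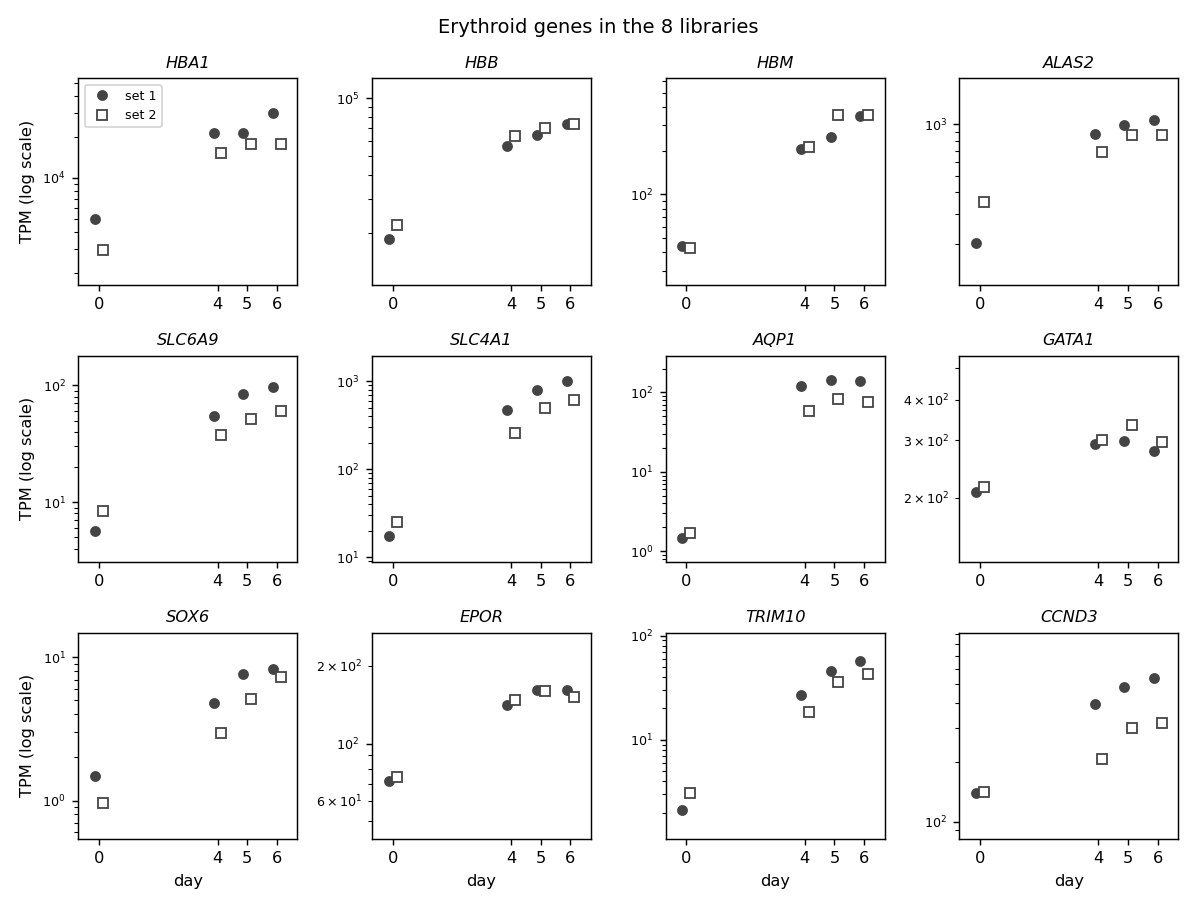
TPM (log axis) of 12 genes on days 0, 4, 5 and 6 in each of the 8 libraries, with filled circles for set 1 and open squares for set 2. In every panel the 6 libraries of days 4 to 6 lie above both libraries of day 0, from a narrow gap for GATA1 (209 and 216 TPM against 279 to 333 TPM) to a wide gap for AQP1 (1.49 and 1.69 TPM against 58.2 to 145 TPM).

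Transcripts of mast cells and basophils, which arise from progenitors close to the erythroid ones, were present on day 0 and fell. Of 18 markers 9 were tested, 8 were lower and none was higher, with a median log2 FC of −3.61. The tryptase genes TPSAB1 and TPSB2 were the most abundant of them. TPSAB1 went from 1009 and 527 to 117 TPM (64.5 to 189) (log2 FC −2.63 ± 0.36, adjusted p = 0.00516) and TPSB2, a near copy that can share its reads, from 1114 and 614 to 142 TPM (80.5 to 223) (log2 FC −2.52 ± 0.36, adjusted p = 0.0057). CPA3, the mast cell carboxypeptidase, was at 0.815 and 6.04 TPM on day 0 and at 0 counts in all 6 libraries of days 4 to 6, which is at least 48.9-fold lower for the mean of day 0 against 3 counts per library and at least 12.4-fold for the lower day 0 library (adjusted p = 0.0146). Without the set 2 library of day 0, which had the higher level, CPA3 did not pass (adjusted p = 0.0727). MS4A2, the beta chain of the IgE receptor, went from 7.999 and 3.66 to 0.0636 TPM (0 to 0.188) (log2 FC −5.96 ± 0.79, adjusted p = 0.00447). IL1RL1, the IL-33 receptor, went from 0.0912 and 0.774 to 0.0275 TPM (0 to 0.0433) (log2 FC −4.8 ± 0.89, adjusted p = 0.0184). It had 89 counts on day 0 and 20 on days 4 to 6. Its log2 FC were −3.07, −8.40 and −2.94 on days 4, 5 and 6, with 0 TPM in both libraries of day 5. The size of the fitted value thus leaned on day 5. Within set 1 and set 2 the log2 FC of IL1RL1 were −1.34 and −4.01. The lectin gene SIGLEC6 fell (log2 FC −3.82) and so did the granule gene PRG2 (log2 FC −1.88). The other 9 markers had too few counts, 5 of them with 0 counts in all 8 libraries.

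Markers of other blood lineages gave few calls. Of 18 megakaryocyte and platelet markers 8 were tested, and GP6, the platelet collagen receptor, was the only one called. It had 0 counts on day 0 and at most 0.182 TPM on days 4 to 6, at least 2.38-fold higher for the mean of 6 libraries and at least 1.15-fold for the lowest (adjusted p = 0.0384). The block fit had 3 of these markers higher and 2 lower. The list's median log2 FC was 1.54, or 1.33 with GP6 at its bound. ITGA2B, the platelet integrin subunit, was at 68.9 and 10.7 TPM and then 1.97 to 15.6 TPM with overlap (log2 FC −2.42 ± 0.92, adjusted p = 0.115), and in the block fit it was lower (adjusted p = 3.28e-05). Of 18 neutrophil and monocyte markers 5 were tested, of 16 lymphocyte markers 1, and of 12 stem and progenitor surface markers 6, and edgeR's quasi-likelihood test called 0 of these 12. At an unadjusted p under 0.05 there were 4 (LYZ, CD68, ENG and CD33), all with a log2 FC below 0, and DESeq2 called 2 of them, LYZ and ENG. In the block fit 3 of the neutrophil and monocyte markers and 2 of the stem and progenitor surface markers were lower. Medians were −0.69, −0.10 and −0.68.

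Many genes of signalling to the leukocyte cytoskeleton fell. Of 24 genes of Rac and leukocyte cytoskeleton signalling 21 were tested, 13 were lower, none was higher and all 21 had a log2 FC below 0, with a median of −1.87. VIM, the intermediate filament protein vimentin that red cell precursors lose (chr10:17228241-17237593), was among the most abundant of them. It went from 1299 and 1304 to 22.8 TPM (18.6 to 45.97) (log2 FC −5.65 ± 0.20, adjusted p = 7.43e-05), and an antisense gene overlaps it. DOCK2, an activator of Rac in blood cells, went from 29.8 and 28.6 to 1.4 TPM (0.973 to 2.93) (log2 FC −4.09 ± 0.18, adjusted p = 0.000171), and its relative DOCK10 from 5.05 and 6.35 to 0.165 TPM (0.106 to 0.353) (log2 FC −4.72 ± 0.17, adjusted p = 7.43e-05). The groups of VIM, DOCK2 and DOCK10 lay far apart. Further genes called lower were VAV1, an exchange factor for Rac (log2 FC −3.56), ARHGDIB, a GTPase inhibitor of blood cells (−3.06), WIPF1, a partner of the WAS protein (−2.51), and LCP1, the actin-bundling L-plastin (−1.94). RAC2 itself, the blood cell Rac, was at 395 and 319.5 TPM and then 264 to 326 TPM with overlap (log2 FC −0.11 ± 0.14, adjusted p = 0.627).

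Integrins and adhesion molecules did not move in a single direction. Of 16 tested of 24, 3 were higher and 3 lower (5 and 5 in the block fit), with a median log2 FC of 0.05. CD36, a scavenger receptor of early erythroblasts, went from 401 and 438 to 889 TPM (655 to 992) (log2 FC 1.17 ± 0.17, adjusted p = 0.00591). ITGB1, the beta subunit that pairs with ITGA4, went from 207 and 208 to 286 TPM (264 to 310.3) (log2 FC 0.62 ± 0.09, adjusted p = 0.00649), and ITGB2, the leukocyte beta subunit, from 1.38 and 1.34 to 2.53 TPM (2.33 to 2.82) (log2 FC 1.06 ± 0.19, adjusted p = 0.013). ITGA4, a marker of erythroid stages, was at 145 and 149.8 TPM and then 140.4 to 179 TPM with overlap (log2 FC 0.30 ± 0.09, adjusted p = 0.0655), and in the block fit it was higher (adjusted p = 0.0173). The lower genes were ICAM1, from 21.5 and 21.6 to 6.16 TPM (4.903 to 7.25) (log2 FC −1.65 ± 0.12, adjusted p = 0.000602), ITGAV, from 2.97 and 4.22 to 1.66 TPM (1.54 to 2.44) (log2 FC −0.83 ± 0.21, adjusted p = 0.0378), and the tetraspanin CD63, from 374 and 367 to 205 TPM (173 to 241) (log2 FC −0.69 ± 0.09, adjusted p = 0.00385).

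**Figure D3:**
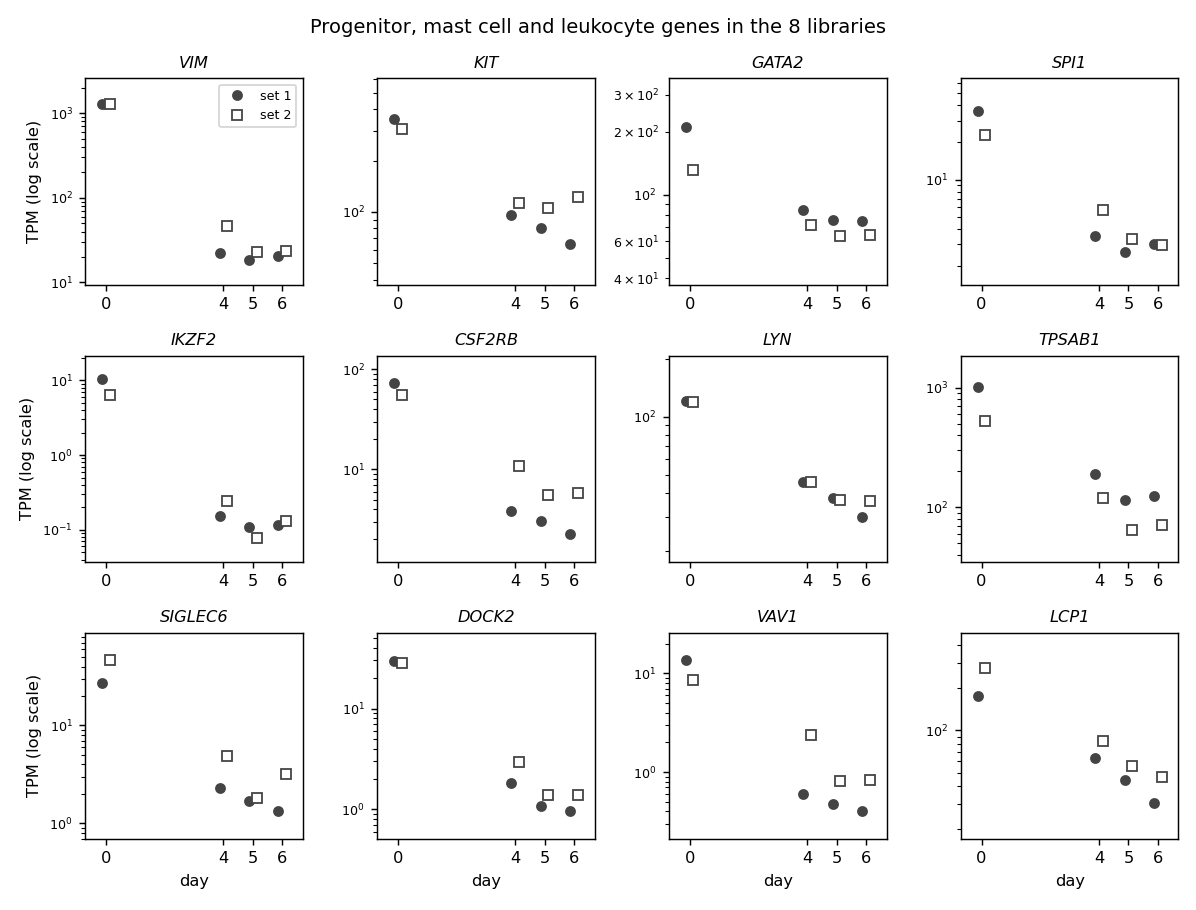
TPM (log axis) of 12 genes of progenitors, mast cells and leukocytes on days 0, 4, 5 and 6, with filled circles for set 1 and open squares for set 2. All 6 libraries of days 4 to 6 lie under both day 0 libraries in every panel, and for SPI1 and CSF2RB the day 4 library of set 2 is the highest of the 6 (5.72 and 10.8 TPM).

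Some genes of cell division rose. Of 32 mitosis genes 10 were higher and none was lower, with a median log2 FC of 0.48 and 31 of 32 above 0, and of 32 DNA replication genes 5 were higher and none was lower, with a median of 0.28. PRC1 and ANLN, which build the midzone and the cleavage furrow, had log2 FC of 1.0 ± 0.18 (adjusted p = 0.0137) and 0.93 ± 0.13 (adjusted p = 0.0059), and CCNB2, a mitotic cyclin, went from 152 and 239.7 to 284 TPM (253 to 318) (log2 FC 0.72 ± 0.18, adjusted p = 0.0331). TK1, which salvages thymidine, went from 84.7 and 138 to 174 TPM (152 to 203) (log2 FC 0.83 ± 0.17, adjusted p = 0.0188). MCM5 of the replicative helicase and CDT1, which loads it, had log2 FC of 0.59 (adjusted p = 0.0414) and 0.50 (adjusted p = 0.0143). With the set as a block 24 mitosis genes were higher and none lower, and 18 replication genes were higher and 1 was lower.

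Of 18 CDK inhibitors and G1 genes 3 were higher and 1 was lower, with a median log2 FC of 0.47. CCND3, the D-type cyclin that governs erythroid divisions, went from 139.7 and 142 to 358 TPM (209 to 537) (log2 FC 1.6 ± 0.36, adjusted p = 0.0258). CCNE1, which acts at the entry into S phase, went from 58.97 and 51.1 to 136 TPM (126 to 150.0) (log2 FC 1.46 ± 0.12, adjusted p = 0.000944), and CCNE2 from 21.1 and 27.5 to 43.3 TPM (29.4 to 50.2) (log2 FC 0.94 ± 0.19, adjusted p = 0.0179). CCND1 fell from 47.4 and 35.5 to 19.6 TPM (16.7 to 24.8) (log2 FC −0.89 ± 0.14, adjusted p = 0.0078). The D-type cyclins thus moved apart, with CCND3 libraries all above and CCND1 libraries all below those of day 0. The inhibitor CDKN1B, p27, was at 48.7 and 43.9 TPM and then 43.5 to 79.2 TPM with overlap (log2 FC 0.61 ± 0.25, adjusted p = 0.142), and in the block fit it was higher (adjusted p = 0.00332). In the block fit 10 genes of the list were higher and 2 lower.

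Of 32 genes of nuclear condensation and chromatin 7 were higher and none was lower (13 and 1 in the block fit), with a median log2 FC of 0.09. HMGB2, an abundant chromatin protein, went from 721 and 683 to 1228 TPM (1021 to 1440) (log2 FC 0.99 ± 0.21, adjusted p = 0.02), and the histone variant H2AZ2 from 95.2 and 134 to 192 TPM (167 to 212) (log2 FC 0.90 ± 0.14, adjusted p = 0.00698). Both genes separated the stages. Of 32 genes of ribosome biogenesis 1 was higher and 5 were lower (15.6%, against 10.6% of all genes), with a median log2 FC of −0.27. NOP2, NOLC1 and NOP16, which process or modify ribosomal RNA, had log2 FC of −0.73 (adjusted p = 0.0465), −0.57 (adjusted p = 0.0178) and −0.54 (adjusted p = 0.0459). UBTF, a factor of RNA polymerase I, went from 106 and 104 to 168 TPM (158 to 188) (log2 FC 0.88 ± 0.13, adjusted p = 0.00662). The block fit had 3 higher and 15 lower.

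Most glycolytic genes fell. Of 22 genes of glycolysis and bisphosphoglycerate metabolism 3 were higher and 13 lower, with a median log2 FC of −0.60. PKM, the pyruvate kinase of most tissues, went from 296 and 342 to 32.98 TPM (25.96 to 63.8) (log2 FC −2.93 ± 0.16, adjusted p = 0.000288). PKLR, the pyruvate kinase of red cells and liver, was at 293 and 374 TPM and then 198 to 377 TPM with overlap (log2 FC −0.05 ± 0.25, adjusted p = 0.918). PKM was thus level with PKLR on day 0 and below it in all 6 libraries of days 4 to 6, as TPM is scaled for length. Among hexokinases HK1 went from 408 and 428 to 554 TPM (505 to 566) (log2 FC 0.55 ± 0.08, adjusted p = 0.00679) and HK2 from 24.3 and 32.6 to 8.32 TPM (3.202 to 13.4) (log2 FC −1.7 ± 0.47, adjusted p = 0.0481). The phosphofructokinase subunit PFKM went from 11.6 and 16.6 to 52.6 TPM (47.2 to 57.2) (log2 FC 2.06 ± 0.13, adjusted p = 0.000403), while PFKP had a log2 FC of −0.69 (adjusted p = 0.00657). BPGM, which makes 2,3-bisphosphoglycerate, went from 21.4 and 22.1 to 51.3 TPM (34.5 to 76.3) (log2 FC 1.51 ± 0.31, adjusted p = 0.0181). The glucose transporter SLC2A3 went from 2.602 and 6.23 to 0.814 TPM (0.601 to 1.53) (log2 FC −2.12 ± 0.32, adjusted p = 0.00677) and SLC2A1, the transporter of human red cells, had a log2 FC of 1.86 (adjusted p = 0.00252). LDHA and ENO1 had log2 FC of −1.68 (adjusted p = 0.00305) and −1.41 (adjusted p = 0.00365).

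Genes of cholesterol synthesis fell. Of 25 genes of cholesterol synthesis and uptake 15 were lower and none was higher (21 and 1 in the block fit), with a median log2 FC of −0.64 and 23 of 25 below 0. HMGCS1, which makes HMG-CoA, went from 748 and 988 to 252 TPM (110.5 to 363) (log2 FC −1.69 ± 0.28, adjusted p = 0.00954), and HSD17B7, a late enzyme, from 26.2 and 21.6 to 8.71 TPM (6.12 to 12.3) (log2 FC −1.3 ± 0.20, adjusted p = 0.0069). Neither gene overlapped between the stages, and the log2 FC of HMGCS1 were −1.27, −1.53 and −2.25 on days 4, 5 and 6. SREBF2, the factor that controls these genes through cleavage of its protein, was at 105 and 107 TPM and then 89.3 to 105 TPM, and its normalized CPM overlapped between the stages (log2 FC 0.02 ± 0.09, adjusted p = 0.919). The differentiation medium contained AB serum, and its part in these values was not tested.

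Of 24 genes of serine and one-carbon metabolism and targets of ATF4, 14 were higher and 1 was lower, with a median log2 FC of 0.89. ATF4 is the transcription factor translated when eIF2alpha is phosphorylated. CHAC1, which breaks down glutathione, went from 4.21 and 3.89 to 32.4 TPM (18.4 to 52.1) (log2 FC 3.12 ± 0.28, adjusted p = 0.00126), and ATF3, a stress factor, from 0.972 and 0.509 to 5.45 TPM (3.06 to 10.97) (log2 FC 3.06 ± 0.54, adjusted p = 0.0122). PHGDH, the first enzyme of serine synthesis, went from 0.133 and 0.812 to 3.99 TPM (0.939 to 8.05) (log2 FC 2.57 ± 0.53, adjusted p = 0.0188), and PSAT1, the second, had a log2 FC of 1.65. PSPH, the last enzyme of that pathway, went the other way, from 24.2 and 28.7 to 16.6 TPM (13.8 to 19.4) (log2 FC −0.54 ± 0.14, adjusted p = 0.0417). ASNS, asparagine synthetase, had a log2 FC of 2.08 and ATF4 itself 0.82.

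Antioxidant genes moved in both directions, and 3 metallothioneins of the list rose. Of 24 tested of 25, 7 were higher and 4 lower (11 and 7 in the block fit), with a median log2 FC of 0.23. MT1G, a metallothionein that binds zinc and copper, had 0 counts on day 0 and stood at 19.7 to 94.8 TPM on days 4 to 6, at least 205-fold higher for the mean of the 6 libraries and at least 82.3-fold for the lowest (adjusted p = 0.0114). MT1X went from 0.166 and 1.16 to 26.2 TPM (18.3 to 36.2) (log2 FC 5.36 ± 0.76, adjusted p = 0.0057) and MT2A from 0.937 and 4.18 to 65.6 TPM (46.1 to 84.6) (log2 FC 4.8 ± 0.61, adjusted p = 0.00396). Metallothionein genes are near copies of each other, so reads can be divided among them in error. The lower genes named here were HMOX2, a heme oxygenase, from 62.8 and 48.9 to 23.3 TPM (17.6 to 28.1) (log2 FC −1.14 ± 0.15, adjusted p = 0.00404), GPX1, a glutathione peroxidase, from 284 and 230.5 to 128 TPM (97.1 to 161) (log2 FC −0.84 ± 0.17, adjusted p = 0.0176), and PRDX1, a peroxiredoxin, from 552 and 594 to 341 TPM (273 to 375) (log2 FC −0.60 ± 0.09, adjusted p = 0.00649). PRDX2, the main red cell peroxiredoxin, had a log2 FC of 1.41 and catalase CAT 0.87, both called.

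**Figure D4:**
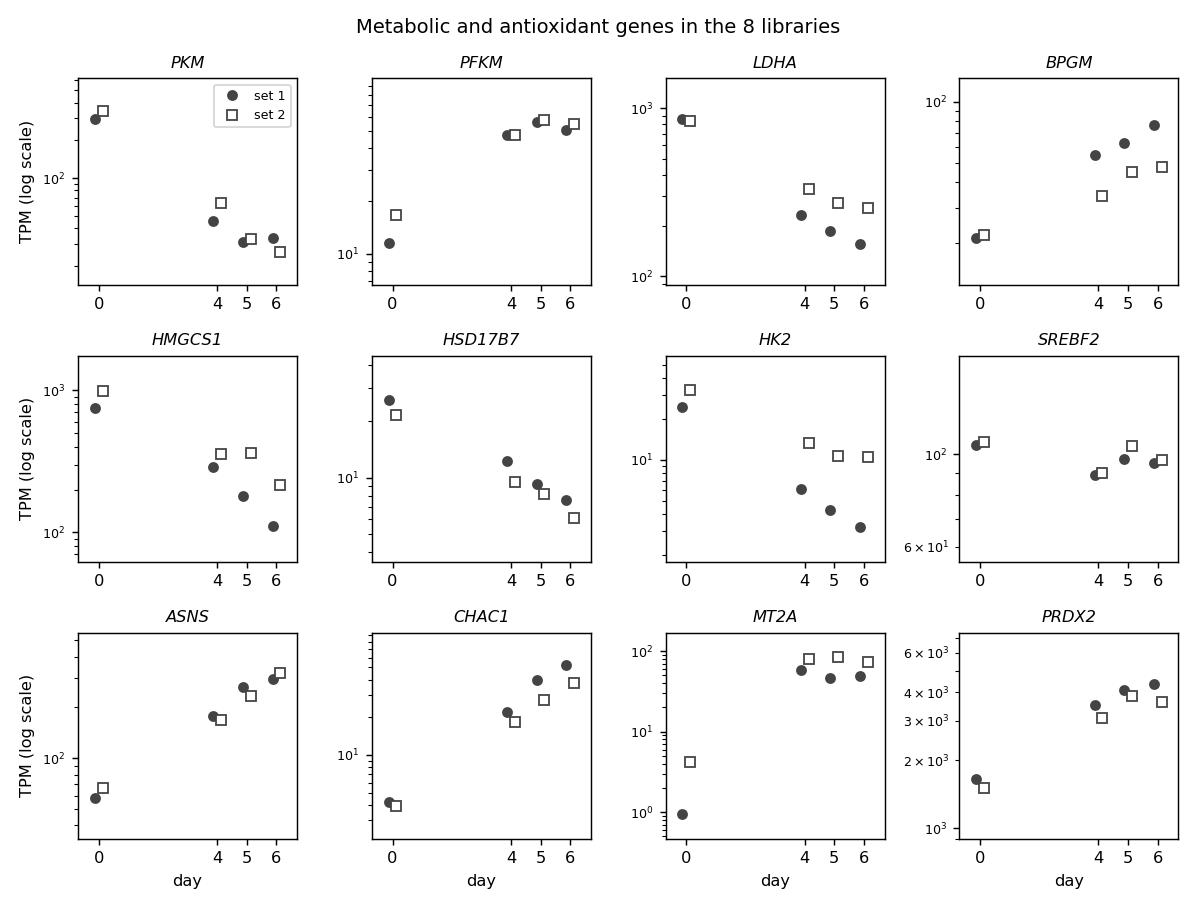
TPM (log axis) of 12 metabolic and antioxidant genes on days 0, 4, 5 and 6, with filled circles for set 1 and open squares for set 2. PKM, LDHA, HMGCS1, HSD17B7 and HK2 lie lower on days 4 to 6, SREBF2 lies close to day 0 (89.3 to 105 TPM against 105 and 107 TPM), and the other 6 genes lie higher.

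Of 24 genes of autophagy and mitochondrial clearance 6 were higher and 1 was lower (11 and 1 in the block fit), with a median log2 FC of 0.27. WIPI1, which acts in autophagosome formation, went from 10.7 and 12.96 to 31.5 TPM (24.4 to 35.3) (log2 FC 1.5 ± 0.13, adjusted p = 0.00118), ULK1, the kinase that starts autophagy, from 4.66 and 6.08 to 11.2 TPM (8.47 to 13.8) (log2 FC 1.21 ± 0.16, adjusted p = 0.00404), and the receptor OPTN from 25.2 and 32.8 to 57.8 TPM (39.8 to 83.8) (log2 FC 1.25 ± 0.32, adjusted p = 0.0394). LAMP1, a lysosomal membrane protein, was the lower gene, from 188 and 176 to 116 TPM (98.5 to 128) (log2 FC −0.51 ± 0.10, adjusted p = 0.0164). Of 16 tested BCL2 family genes of 18, 1 was higher and 1 lower (3 and 3 in the block fit), with a median of 0.03. BAD went from 26.3 and 29.4 to 38.05 TPM (36.4 to 46.9) (log2 FC 0.63 ± 0.13, adjusted p = 0.0216) and BIK from 9.41 and 10.2 to 3.11 TPM (2.56 to 4.76) (log2 FC −1.41 ± 0.24, adjusted p = 0.0109), and both encode proteins that promote cell death. BCL2L1, the survival gene that EPO is known to induce, was at 98.7 and 75.6 TPM and then 68.5 to 110.0 TPM with overlap (log2 FC 0.15 ± 0.21, adjusted p = 0.664). Of 21 tested chaperone genes of 22, 1 was higher and 1 lower (2 and 6 in the block fit), with a median of −0.15. AHSP, which stabilizes free alpha globin, went from 1546 and 1295 to 2944 TPM (2319 to 3712) (log2 FC 1.22 ± 0.27, adjusted p = 0.023), and HSPA5, the chaperone of the endoplasmic reticulum, from 415 and 257 to 168 TPM (159 to 205) (log2 FC −0.78 ± 0.20, adjusted p = 0.0401). The shares called in the BCL2 and chaperone lists, 6.25% and 4.76% in each direction, were under those of all genes.

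Of 28 ubiquitin ligases and E2 enzymes, 5 were higher and 3 lower, with a median log2 FC of 0.18. TRIM10, the erythroid ligase that the study follows (chr6:30151939-30163216), went from 2.13 and 3.09 to 39.3 TPM (18.3 to 56.5) (log2 FC 3.93 ± 0.30, adjusted p = 0.000781), and its log2 FC over day 0 were 3.26, 4.09 and 4.43 on days 4, 5 and 6. RNF187 went from 51.8 and 51.8 to 85.4 TPM (79.6 to 108) (log2 FC 0.96 ± 0.16, adjusted p = 0.00896) and UBE2L6, an E2 enzyme, from 66.2 and 67.97 to 112 TPM (99.5 to 134) (log2 FC 0.94 ± 0.13, adjusted p = 0.00543). TRIM58, a ligase tied to enucleation, changed little, from 56.2 and 52.1 to 65.5 TPM (56.8 to 67.1) (log2 FC 0.40 ± 0.11, adjusted p = 0.0423). TRIM47 fell from 2.303 and 2.803 to 0.282 TPM (0.246 to 0.372) (log2 FC −2.85 ± 0.26, adjusted p = 0.00125), TRIM29 from 74.2 and 83.7 to 21.2 TPM (8.66 to 40.1) (log2 FC −1.77 ± 0.45, adjusted p = 0.0366) and TRIM6 from 20.7 and 21.5 to 10.1 TPM (5.99 to 12.5) (log2 FC −1.01 ± 0.19, adjusted p = 0.0149). TRIM32 was at 26.4 and 35.6 TPM and then 5.44 to 20.6 TPM without overlap but did not pass (log2 FC −1.24 ± 0.47, adjusted p = 0.115), and with the set as a block it was lower (adjusted p = 0.000706). TRIM14 and TRIM27 had log2 FC of 0.18 (adjusted p = 0.467) and −0.17 (adjusted p = 0.266). In the block fit 12 genes of the list were higher and 5 lower.

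Of 21 tested genes of BMP and TGF-beta signalling of 24, 1 was higher and 7 lower (6 and 9 in the block fit), with a median log2 FC of −0.16. SMAD6, an inhibitor of BMP signalling, had 0 counts on day 0 and stood at 0.201 to 1.02 TPM on days 4 to 6, at least 25.2-fold higher for the mean of the 6 libraries and at least 10.3-fold for the lowest (adjusted p = 0.0137). SMAD6 did not pass when either day 0 library was left out (adjusted p = 0.077 without that of set 1 and 0.0595 without that of set 2). ID4, a target of BMP signals, went from 0.199 and 0.342 to 0.00768 TPM (0 to 0.0323) (log2 FC −4.98 ± 0.89, adjusted p = 0.0164). It was at 0 TPM in both libraries of day 6, and its log2 FC were −3.1, −3.92 and −7.92 on days 4, 5 and 6. ACVR1B, a receptor for activin, went from 14.9 and 17.1 to 5.48 TPM (3.82 to 6.31) (log2 FC −1.46 ± 0.19, adjusted p = 0.0042), and SMAD5, which carries BMP signals in erythroid cells, from 11.97 and 12.9 to 4.03 TPM (3.04 to 5.76) (log2 FC −1.4 ± 0.17, adjusted p = 0.00331). No library of days 4 to 6 reached the day 0 levels of ACVR1B or SMAD5.

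Several of the largest increases belonged to no list. SYBU, a linker of cargo to kinesin, went from 0.0744 and 0.0622 to 10.4 TPM (3.08 to 15.6) (log2 FC 6.41 ± 0.52, adjusted p = 0.00091). C17orf99, which encodes a secreted protein, went from 0.0911 and 0.172 to 6.52 TPM (2.84 to 9.73) (log2 FC 5.39 ± 0.69, adjusted p = 0.00408), and CMKLR1, the receptor for chemerin, from 0 and 0.0457 to 1.08 TPM (0.647 to 1.69) (log2 FC 5.68 ± 1.01, adjusted p = 0.0122). The nuclear receptor gene NR2F1 had 2 counts on day 0 and 707 on days 4 to 6, a ratio, scaled for library size, of 119.7 (95% interval 33 to 990.0). Other genes had 0 counts on day 0. TDH, annotated as a threonine dehydrogenase pseudogene, was at 1.65 to 3.45 TPM on days 4 to 6 and at least 37.4-fold higher for the mean (adjusted p = 0.00195). PCDH1, a protocadherin, was at 0.246 to 1.67 TPM and at least 42.7-fold higher (adjusted p = 0.0109), DHRS3, which reduces retinaldehyde, at 0.289 to 3.21 TPM and at least 34.1-fold (adjusted p = 0.044), and MT1H, another metallothionein, at 2.62 to 26.1 TPM and at least 41.7-fold (adjusted p = 0.0282). For the lowest of the 6 libraries the bounds of these 4 genes were 22.8, 15.9, 6.22 and 11.5. On log2(TPM + 1) limma called TDH and MT1H but not PCDH1, DHRS3 or NR2F1 (adjusted p = 0.124, 0.168 and 0.159). With a pseudocount of 0.1 it called each of them. DHRS3 stood at 2.14 to 3.21 TPM in set 1 and 0.289 to 0.525 TPM in set 2 on these days. Without the day 0 library of set 1 or of set 2, the log2 FC of NR2F1 was 9.84 or 5.66.

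Large decreases were also seen in genes outside the lists. RHEX, an adaptor of EPO receptor signalling (chr1:206053173-206102449), went from 138 and 131 to 0.969 TPM (0.408 to 2.405) (log2 FC −6.84 ± 0.46, adjusted p = 0.000483). CDK15, a little studied kinase of the CDK family, went from 20.6 and 11.04 to 0.0805 TPM (0.0590 to 0.234) (log2 FC −7.01 ± 0.31, adjusted p = 0.000171), and GPR85, an orphan receptor, from 6.33 and 3.37 to 0.0259 TPM (0 to 0.0962) (log2 FC −6.88 ± 0.84, adjusted p = 0.0035). PTGES, which makes prostaglandin E2, was at 2.05 and 2.92 TPM on day 0 and at 0 counts in all libraries of days 4 to 6, at least 35.8-fold lower for the mean of day 0 and at least 30.7-fold for the lower library (adjusted p = 0.00345). CYP17A1, an enzyme of steroid synthesis, went from 6.75 and 1.47 to 0.0676 TPM (0 to 0.0868) (log2 FC −6.04 ± 0.91, adjusted p = 0.0069), and the pseudogene SIGLEC17P from 2.44 and 6.12 to 0.0379 TPM (0 to 0.186) (log2 FC −6.05 ± 0.68, adjusted p = 0.00256). EYA4, a coactivator of transcription, went from 2.91 and 0.170 to 0.00309 TPM (0 to 0.0198) (log2 FC −7.38 ± 1.20, adjusted p = 0.00902) and GAS7, a protein of the cytoskeleton, from 1.89 and 0.680 to 0.00614 TPM (0 to 0.0351) (log2 FC −6.74 ± 1.01, adjusted p = 0.00688). The day 0 libraries differed widely for EYA4 and CYP17A1, and less for GAS7. Without the day 0 library of set 1, the log2 FC of EYA4, CYP17A1 and GAS7 were −4.37, −4.5 and −5.72. On log2(TPM + 1) limma did not call EYA4 (adjusted p = 0.0989) but called CYP17A1 and GAS7 (adjusted p = 0.0124 and 0.00876). SGK3, a kinase, went from 1.61 and 1.19 to 0.0303 TPM (0 to 1.003) (log2 FC −5.53 ± 0.86, adjusted p = 0.0111), but it was at 0 TPM in both libraries of day 4, 0.735 TPM for the mean of day 5 and 0.0303 TPM for that of day 6. The size and the call of SGK3 rested on the fit by day. Its log2 FC was −2.30 in edgeR's exact test (adjusted p = 0.34) and −2.29 with 1 coefficient for days 4 to 6 (adjusted p = 0.296). Within set 1 or set 2 alone SGK3 did not pass either, with log2 FC of −2.10 (adjusted p = 0.368) and −2.55 (adjusted p = 0.158), and day 5 alone differed from day 0 by −0.78. RHEX and CDK15 combined high day 0 levels with adjusted p of 0.000483 and 0.000171.

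Further genes that the study names from this line were also read. CR1L, a gene related to complement receptor 1, went from 0.373 and 0.616 to 8.79 TPM (5.63 to 10.7) (log2 FC 4.18 ± 0.25, adjusted p = 0.000363), and RAP1GAP, which switches off Rap1, from 24.5 and 31.7 to 47.4 TPM (36.02 to 62.5) (log2 FC 0.95 ± 0.15, adjusted p = 0.00907). C5AR2, a receptor for complement C5a, fell from 5.25 and 6.43 to 0.766 TPM (0.479 to 1.83) (log2 FC −2.58 ± 0.23, adjusted p = 0.00118). C5 itself was at 0.0839 and 0.0909 TPM and then 0.180 to 1.87 TPM without overlap but did not pass (log2 FC 3.47 ± 1.04, adjusted p = 0.062), and with the set as a block it was higher (adjusted p = 0.00232). The study names these genes in its own data on this series, so their choice is not independent of these libraries.

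Among days 4, 5 and 6, the last was tested against the first. Between day 6 and day 4, edgeR's quasi-likelihood test called 0 genes in either direction, the smallest adjusted p being 0.574, and at an unadjusted p under 0.05 there were 159 higher and 196 lower genes. DESeq2 called 16 higher and 4 lower. The 16 included ASS1, of arginine synthesis (log2 FC of day 6 over day 4 2.57, adjusted p = 1.11e-10), ASNS (0.87, adjusted p = 3.07e-07) and PSAT1 (0.80, adjusted p = 3.69e-05), and the 4 included DOCK10 (−1.47, adjusted p = 0.0177) and LYN (−0.42, adjusted p = 0.0441). With the set as a block 3 were higher (ASS1, SLC1A4 and SYBU) and 1 was lower (LCP1). These genes were named after their values were seen. The changes from day 0 nevertheless tended to be larger on later days. The median absolute log2 FC over day 0 of the 2825 genes called was 0.879 on day 4, 1.02 on day 5 and 1.08 on day 6, and for 2332 of them the value was larger on day 6 than on day 4. All 3 days share the same day 0 libraries, so these values are not independent.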

How the data were processed

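RNA-seq of HUDEP-2 cells was used as deposited. Per the submitters' processing notes, the authors used Trimmomatic 0.38, HISAT2 2.1.0 with the hg38 genome and StringTie 2.1.3b, for trimming, alignment and quantification. The library kit is stranded, and whether the counting used strand is not given in the sources used here. The deposited tables hold read counts and TPM per transcript, and both were summed here by gene symbol. Read counts of 8 libraries entered the tests, with 55079862 to 70358198 counts each. Of 63 columns of per-sample values, 35 were not used, among them a further day 0 column in the day 12 table, whose values differ from those of both day 0 libraries used and which the labels tie to no further sample, and the authors' FPKM values. Genes were kept by filterByExpr of edgeR 4.0.16 (R 4.3.3), scaled by TMM and tested by the quasi-likelihood test, with a coefficient for each day, the mean of days 4, 5 and 6 against day 0, 4 residual degrees of freedom and Benjamini-Hochberg adjustment at 0.05. Alternatives were DESeq2 1.42.0, edgeR's exact test, limma 3.58.1 on log2(TPM + 1) and log2(TPM + 0.1), other scalings, filters and samples, the table a library came from as a block, and leaving out each library. The scripts were tested on simulated data, with 1 common spread for all genes and 200 of 15386 genes changed. There 20% of the 2-fold and 97% of the 4-fold changes were called, and 2.5% of the calls were false. A gene that was not called can thus still have changed.

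The standard error of a log2 FC is its absolute value over the square root of the test's F. Fold changes within a set used a prior count of 2. Genes with 0 counts in a stage are given as bounds against 3 counts per library. Named genes were the 12 largest increases and decreases among genes called without overlap and with a mean of at least 100 counts in the higher stage, up to 3 called members of each list in each direction, all globins, and genes that the study names from this line. A few genes that this rule names are not reported here. Members and lists were chosen with earlier results of these data known. As no column is numbered as a replicate, both libraries of a day are unnumbered replicates, and their spread may be technical.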

Additional observations from a re-analysis of the deposited data

Results flagged for a closer look

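Among 130 named genes with a test of spread over the 6 libraries of days 4 to 6, 9 had a library set apart by a gap, as a share of the whole range, above Dixon's 95% critical value for 6 samples, and chance flags about 1 in 20. Values are normalized CPM. The day 4 library of set 2 was the highest for RHEX (1.42, others 0.255 to 0.661, gap 0.65 of the range), VIM (43.3, others 17.7 to 24.1, gap 0.751), SPI1 (3.98, others 1.81 to 2.43, gap 0.715), CSF2RB (26.6, others 6.26 to 13.8, gap 0.628) and SLC2A3 (2.96, others 1.28 to 1.86, gap 0.656). It was the lowest for IKZF1 (290.2, others 335 to 350.2, gap 0.747). The day 6 library of set 1 was the highest for HBA1 (9585, others 4424 to 6270, gap 0.642) and HBA2 (9100, others 4406 to 5840, gap 0.695). The day 4 library of set 1 was the highest for HBE1 (1.74, others 0.496 to 0.714, gap 0.825).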

How the results depend on the processing

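Against 1195 higher and 1630 lower genes, DESeq2 gave 1936 and 2126, edgeR's exact test 1971 and 2450, and 1 coefficient for days 4 to 6 gave 1889 and 2235. The fit with the set as a block gave 2831 and 3373, and set 1 alone 3037 and 3041. limma called 718 higher and 2155 lower genes on log2(TPM + 1), and 761 and 2109 on log2(TPM + 0.1). Leaving out 1 library gave 260 to 1043 higher and 462 to 1349 lower genes, with fewer samples in each fit. For day 6 over day 4, where 0 genes were called in either direction, DESeq2 gave 16 higher and 4 lower, the set as a block 3 and 1, and leaving out 1 library 0 to 1 higher. The other scalings, filters and samples kept both counts within 1.5 times. The cause of these shifts was not tested. Most named genes were picked from those called, so a high share called and few reversals follow largely from that choice and are not independent support. Of 132 named genes 124 were called, and of their 2746 values under alternatives 2446 kept direction and side of the threshold, 267 no longer passed, 33 newly passed and 0 reversed. Of the 267, 69 came from leaving out the set 1 library of day 0 and 50 from leaving out that of set 2. No paired analysis was possible because the columns carry no replicate number. Each set holds 1 library of each day, and the fit with the set as a block, given above, compares the days within sets. Depth limits genes at or under 3 counts a library, for which no difference was detectable.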

Other observations

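Families outside the lists were also counted, chosen after their values were seen and matched by gene symbol alone. They are read against the 7.77% of all genes tested that were called higher and the 10.6% called lower. Of 83 cytosolic ribosomal protein genes tested, 1 was higher (RPS27L) and 2 were lower (RPL39L and RPL22L1), with a median log2 FC of 0.11. The genes called there all have symbols of ribosomal protein-like genes. Of 78 mitochondrial ribosomal protein genes 1 was higher and 6 lower, with a median of −0.11. Complex I of the respiratory chain had 1 higher and 1 lower of 37 genes, with a median of 0.02. Of 37 proteasome genes, 1 was higher (PSMD12) and 2 were lower (PSMB8 and PSMB9, subunits of the immunoproteasome), with a median of 0.13. Solute carriers, with 37 higher and 44 lower of 219, and genes named ZNF, with 26 and 20 of 415, had medians of −0.04 and 0.12. The solute carriers called include SLC16A1-AS1, an antisense gene, and SLC2A4RG, neither of which is itself a carrier. The shares called were above those of all genes in both directions for the solute carriers and under them for the ZNF genes. Interferon-induced genes had 2 higher and 2 lower of 23, with a median of −0.66. Genes with symbols beginning HLA had 1 higher and 3 lower of 11, the higher being the antisense gene HLA-F-AS1. Semaphorins and plexins had 3 higher and 2 lower of 19, and cadherins and protocadherins 1 and 3 of 8.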
